A study of Mus musculus with 4 samples.

Results

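Chemokines steer B cells and the plasma cells that descend from them into tissues, and 5 ligand and receptor axes of this kind were followed here in leukocytes of the mouse dura mater, the tough outer meningeal layer. The members were the 10 genes *Cxcl12* and *Cxcr4*, *Ccl28* and *Ccr10*, *Ccl25* and *Ccr9*, *Cxcl13* and *Cxcr5*, and *Ccl19* and *Ccr7*, taken by symbol from a table of 55401 genes. A chemokine is a small secreted protein that binds a receptor of the G protein–coupled class on the surface of a leukocyte, and the cell then moves toward its source. CXCL12 holds plasma cells and B cell precursors in bone marrow through CXCR4. CCL28 and CCL25 are mucosal chemokines that attract IgA-secreting plasma cells through CCR10 and CCR9. CXCL13 draws B cells into follicles through CXCR5, and CCL19 guides T cells and dendritic cells through CCR7.

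The cells were CD45+ leukocytes sorted from the dura mater of male wild-type C57BL/6J mice, and CD45 is a surface protein of all leukocytes, encoded by *Ptprc*. At 4 wk of age the mice had received 2 μl of an AAV serotype 9 vector by the intracisternal route, that is, into the CSF. The AAV-mVEGF-C vector carries the complete mouse VEGF-C, a lymphatic growth factor, whereas that of AAV-CTRL carries an immunoglobulin fusion of VEGFR-3 ectodomains that does not bind VEGF-C, so both groups carried a vector and none was uninjected. Each library came from a pool of 10 to 12 mice, and each group had 2 libraries, so every spread given here is one between pools, and differences between single mice cannot be seen.

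The control vector pools are called AAV-CTRL 1 and 2 or control pools, and those that received VEGF-C are called AAV-mVEGF-C 1 and 2 or VEGF-C pools; paired values are given in this order, and genes are placed on GRCm38 as in GENCODE M21. The libraries held 32520709 to 46409700 reads assigned to genes. The pools differed in ways that touch the values below. Although AAV-CTRL 1 was the deepest, reads were found in only 20993 genes there, against 29230 to 37535 elsewhere, and of the 2753 genes with a read total within 1.5-fold of that of *Ccr10* it had 0 reads for 31.3%, against 1.16 to 3.56% in the other libraries. AAV-CTRL 2 had the highest summed TPM (a level scaled for gene length that sums to 1000000 per library) for 8 of 12 cell type marker lists, among them B cells at 517 TPM against 202 to 233 elsewhere, and fibroblasts and stroma at 531 TPM against 178 to 266. *Ptprc* was at 191 to 215 TPM in all 4 libraries. Neutrophil transcripts were the most abundant marker list, and AAV-CTRL 1 stood apart in it, at 35640 summed TPM against 16833 in AAV-CTRL 2 and 19742 and 22543 in the VEGF-C pools. The part of this difference in the values below was not tested. Stromal transcripts such as *Mgp* and *Igfbp5*, which leukocytes are not known for, were present in every library despite the sort.

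The sequences just upstream of 4 members are shown because the values described below turn on these genes, *Cxcr4* as the most abundant of the 10, *Ccl28* as the one below the expression filter, and *Cxcl12* and *Ccr9* for the way they varied among libraries. They are the 150 bases before the RefSeq start on GRCm38.p6, 5′ to 3′ on the strand of the gene. Capitals mark matches, on either strand, to a TATA box (TATAAA), a GC box (GGGCGG), a kappaB-like motif (3 G, any 5 bases, and 2 C) or the core of a hypoxia response element (ACGTG).
Cxcr4, chr1:128592300-128592449, minus strand: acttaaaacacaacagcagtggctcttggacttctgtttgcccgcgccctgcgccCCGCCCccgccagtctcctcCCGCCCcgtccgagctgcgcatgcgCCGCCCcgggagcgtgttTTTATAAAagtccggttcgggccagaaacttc
Cxcl12, chr6:117168385-117168534, plus strand: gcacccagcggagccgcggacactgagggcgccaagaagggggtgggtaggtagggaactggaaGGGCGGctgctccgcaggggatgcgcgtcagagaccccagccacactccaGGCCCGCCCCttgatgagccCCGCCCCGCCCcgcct
Ccl28, chr13:119623669-119623818, plus strand: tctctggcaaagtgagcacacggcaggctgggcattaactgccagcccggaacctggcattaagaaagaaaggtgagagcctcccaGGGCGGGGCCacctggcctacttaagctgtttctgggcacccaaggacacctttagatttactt
Ccr9, chr9:123767061-123767210, plus strand: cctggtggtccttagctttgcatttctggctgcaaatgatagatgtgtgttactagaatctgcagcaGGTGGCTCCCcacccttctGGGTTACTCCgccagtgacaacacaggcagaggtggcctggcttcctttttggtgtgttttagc

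*Cxcr4* has 3 GC boxes and, near its start, a TATA box that overlaps its own reverse match. *Cxcl12* has 4 GC boxes, one of which lies inside its kappaB-like match, and no TATA box. *Ccl28* has 1 GC box, inside a kappaB-like match, and *Ccr9* has 2 kappaB-like matches alone. Among 32475 windows of the same length before all gene starts, 7.55% held the TATA box, 28.9% the GC box, 35.6% the kappaB-like motif, and 11.3% the hypoxia core, which none of the 4 sequences held. These matches describe letters, not binding. RefSeq windows were found for 7 of the 10 genes, 8 windows in all. Of these 8, a TATA box was in 3, a GC box in 3, a kappaB-like match in 4, and the hypoxia core in 0. The *Ccr9* start used lies inside the longer GENCODE gene model.

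The 5 receptors and 5 ligands spanned a wide range of levels. By mean TPM over the 4 libraries, which compares genes per length, *Cxcr4* was the highest at 75.0 ± 5.21 (SD, n = 4), above 97.7% of the 40698 genes with any signal. *Ccr7* followed at 24.7 ± 5.90 TPM. *Cxcr5* at 6.71 ± 3.35, *Ccr9* at 5.31 ± 2.19, and *Cxcl12* at 5.24 ± 2.27 TPM came next and did not separate from one another, since their ranges across libraries overlapped. *Ccl25* was at 2.67 ± 0.443 TPM. *Cxcl13*, at 1.10 ± 0.710, and *Ccl19*, at 1.01 ± 0.613 TPM, overlapped as well. *Ccr10* was at 0.166 ± 0.143 TPM and *Ccl28* at 0.0488 ± 0.0560 TPM. In each library with reads for both genes of an axis, the receptor had the higher TPM.

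None of the tested genes of these axes passed the test between AAV-mVEGF-C and AAV-CTRL. Reads were scaled with TMM and are given as CPM (reads scaled to a common library size of 1000000). They were compared by the quasi-likelihood method of edgeR, with p-values adjusted after Benjamini and Hochberg over the 19806 genes that passed its expression filter. 9 of the 10 passed that filter, and *Ccl28* did not. The test called 0 genes in all (0.00%) at an adjusted p of 0.05, while 523 genes (2.64%) had an unadjusted p under 0.05, and DESeq2 called 77 (0.389%). None of the 9 was among them under either rule. In CPM, both VEGF-C pools exceeded both control pools for *Cxcr4* and *Ccr10*, which was so for 16.8% of tested genes, and no homing gene had both VEGF-C pools lower, which was so for 15.2%. Thus 2 of the 9 tested genes separated the groups, against 31.9% of tested genes in either direction. With *Ccl28* it was 3 of 10 in the upward direction, against 17.9% of genes with at least 1 read. In bulk RNA, fewer cells of a type and less RNA per cell cannot be told apart.

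**Figure D1:**
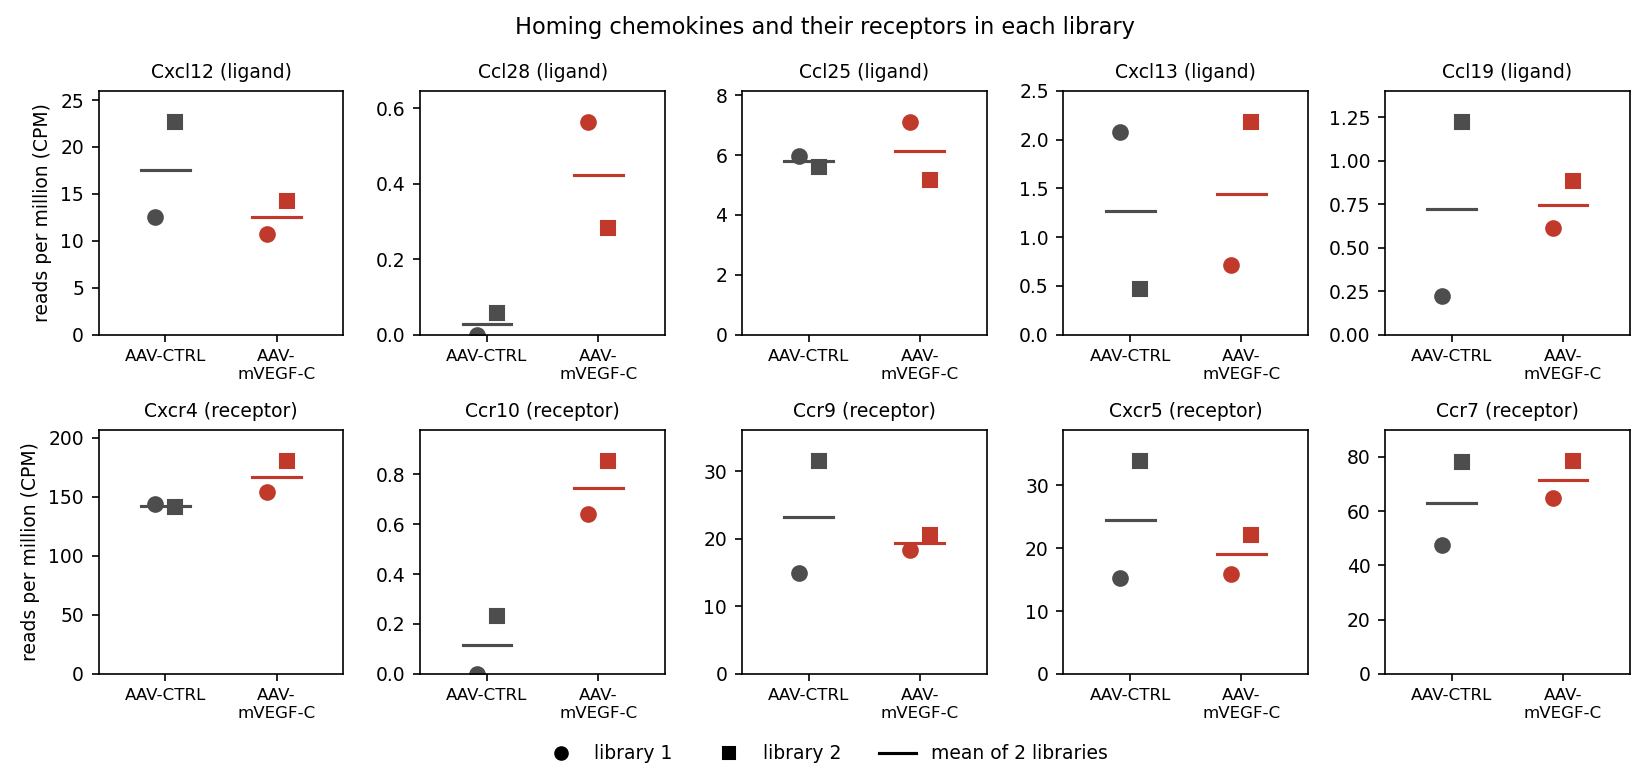
Scaled reads (CPM, linear axis from 0) of the 5 ligands (top) and their 5 receptors (bottom) in the 2 libraries of each group, with points for libraries and a bar for the mean. Only *Cxcr4*, *Ccl28*, and *Ccr10* had both AAV-mVEGF-C points above both AAV-CTRL points, and *Cxcl12*, *Ccr9*, *Cxcr5*, and *Ccl19* had their highest point in AAV-CTRL 2.

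The CXCL12 axis paired the most abundant receptor with the most abundant ligand. *Cxcr4* (ENSMUSG00000045382.6, located on the minus strand of chromosome 1 between 128588199 and 128592293) was at 144 and 141 CPM in the control pools and at 154 and 180 CPM in the VEGF-C pools. The groups did not overlap, but the gap was smaller than the distance between the AAV-mVEGF-C libraries. The means were 142 ± 1.88 and 167 ± 18.2 CPM (SD, n = 2), and edgeR put the difference at 0.23 ± 0.16 (SE) on the log2 scale, with a 95% interval of −0.16 to 0.62 and an adjusted p of 0.999. In TPM the groups overlapped, at 72.4 and 73.7 against 71.4 and 82.7. *Cxcr4* is expressed by most leukocytes, so its level in a mixed sort is not that of plasma cells.

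*Cxcl12* (ENSMUSG00000061353.11, located on the plus strand of chromosome 6 between 117168535 and 117181367) was at 12.5 and 22.6 CPM in the control pools and at 10.7 and 14.3 CPM in the VEGF-C pools. AAV-CTRL 2 stood above the other libraries, and AAV-CTRL 1 lay between the AAV-mVEGF-C libraries. edgeR put the difference at −0.49 ± 0.34 (SE) on the log2 scale, with a 95% interval of −1.31 to 0.34 and an adjusted p of 0.999. It was −0.87 without AAV-CTRL 1 (adjusted p = 0.0478, where 1.85% of genes were called) and 0.0097 without AAV-CTRL 2 (adjusted p = 0.984), so a call depended on which control was kept. *Cxcl12* is known as a product of stromal cells rather than leukocytes. Whether such cells set its level here was not tested. Per 1000 summed TPM of the 15 fibroblast and stromal markers it was at 18.1 and 16.1 with the control vector and 18.8 and 17.8 with VEGF-C. This ratio varied 1.17-fold, while *Cxcl12* itself varied 2.55-fold in TPM, and 0.137% of 18268 genes kept as narrow a ratio to these markers. Of the 14 tested stromal markers, 7 were lower in both AAV-mVEGF-C libraries and 0 were higher, against 15.2% and 16.8% of tested genes, with a median log2 fold change of −0.75 against 0.0034 for all tested genes. The TPM of *Cxcr4* was 16.6 and 8.64 times that of *Cxcl12* in the control pools and 21.3 and 17.5 times in the VEGF-C pools.

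The other binding partners of this axis were also measured. *Ackr3*, which encodes a scavenging receptor of CXCL12, was at 0.0224 and 1.28 CPM with the control vector and 0.614 and 0.789 CPM with VEGF-C. *Mif* and *Cd74* encode a CXCR4-binding cytokine and its own receptor. *Mif* was at 32.0 and 26.3 against 21.0 and 23.7 CPM, and *Cd74* was at 4329 and 5713 against 4719 and 5995 CPM. *Hmgb1*, whose protein can form a complex with CXCL12, was at 193 and 131 CPM with the control vector and 105 and 110.5 CPM with VEGF-C. edgeR put its difference at −0.59 ± 0.22 (SE) on the log2 scale (unadjusted p = 0.0339, adjusted p = 0.999).

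The CCL28 axis was close to the detection limit, and both of its genes had more reads with VEGF-C. *Ccr10* (ENSMUSG00000044052.3, located on the minus strand of chromosome 11 between 101172997 and 101175443) had 0 and 8 reads in the control pools and 25 and 27 in the VEGF-C pools, which is 0 and 0.233 against 0.640 and 0.852 CPM. The estimate from edgeR was 2.68 ± 1.78 (SE) on the log2 scale, with a 95% interval of −1.65 to 7.01 and an adjusted p of 0.999, and its width leaves both a fall and a large rise possible. Without AAV-CTRL 2 the remaining control is at 0 reads, and *Ccr10* was then called at a log2 fold change of 7.85 (adjusted p = 0.0293 from edgeR), a size that depends on the prior count, where 9.19% of genes were called. *Ccl28* (ENSMUSG00000074715.3, located on the plus strand of chromosome 13 between 119623819 and 119654359) had 0 and 2 reads with the control vector and 22 and 9 with VEGF-C. Pooled over libraries, 31 reads against 2 gave a ratio of 17.3, with an exact 95% interval of 4.41 to 149 that covers counting error only and not the spread between pools. Where the spread was included, by edgeR without the filter, the difference was 3.75 ± 2.38 (SE) on the log2 scale (unadjusted p = 0.115, adjusted p = 0.975). The exact two-sided permutation test gave p = 0.333, the smallest that 2 pools against 2 allow.

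A count of 0 in AAV-CTRL 1 allows up to 0.0646 CPM before TMM scaling (3 reads of the library total), which covers counting error only. That library also had 0 reads for 31.3% of similarly low genes. Among the genes with a read total within 1.5-fold of that of *Ccl28*, 26.3% had their 2 control values under the lower VEGF-C value, and it was 22.9% for those near *Ccr10*. The part of the low detection in AAV-CTRL 1 in these differences was not tested. Without AAV-CTRL 1, the log2 fold change of *Ccr10* was 1.65 (adjusted p = 0.999 from edgeR).

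The plasma cell marker *Jchain*, which joins IgA and IgM chains, was also higher in value with VEGF-C, at 164 and 186 against 405 and 413 TPM (adjusted p = 0.331 from edgeR). The 15 plasma cell markers summed to 482 and 521 TPM with the control vector and 747 and 760 TPM with VEGF-C. Most of the gap in this sum was *Jchain*, since the other 14 markers summed to 318 and 335 against 342 and 346 TPM, a ratio of the group means of 1.05. That smaller sum is weighted by *Sec11c*, at 112 and 74.4 against 74.2 and 75.7 TPM. Gene by gene, the median log2 fold change of the 15 markers was 0.53, and 4 were higher at an unadjusted p under 0.05 from edgeR. Of the 15, 10 had both AAV-mVEGF-C libraries higher and 0 had both lower, against 16.8% and 15.2% of tested genes. Dendritic cell markers had the same tally, 10 of 15 higher and 0 lower, and T cell markers had 8 of 15 higher and 1 lower. Of the plasma cell markers, *Sec11c*, *Irf4*, and *Pou2af1* were among those whose groups overlapped. Per 1000 TPM of the full list, *Ccr10* was at 0 and 0.194 with the control vector and 0.327 and 0.420 with VEGF-C, and *Cxcr4* was at 150 and 141 against 95.6 and 109, with both VEGF-C pools lower. Per 1000 TPM of the 14 markers without *Jchain*, which was left out after the values were seen, *Ccr10* was at 0 and 0.301 against 0.714 and 0.921. *Cxcr4* was at 228 and 220 against 209 and 239 on that scale, where its groups overlapped, so its direction against the list rested on *Jchain*. The part of plasma cell transcripts in the values of *Ccr10* and *Ccl28* was not tested. CCR3, known from eosinophils, also binds CCL28, and *Ccr3* was at 4.99 and 3.49 CPM with the control vector and 7.96 and 5.90 CPM with VEGF-C (0.71 ± 0.36 (SE) on the log2 scale by edgeR, adjusted p of 0.999). *Ccl27a*, which encodes the skin chemokine that shares CCR10, was at 0.380 and 0.872 against 0.947 and 0.946 CPM. Its estimated reads include fractions.

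The CCL25 axis held a ligand at similar levels in all pools and a receptor that was highest in 1 control pool. *Ccl25* (ENSMUSG00000023235.14, located on the plus strand of chromosome 8 between 4325210 and 4360020) was at 5.97 and 5.61 CPM in the control pools and at 7.09 and 5.17 CPM in the VEGF-C pools. Both controls lay between the AAV-mVEGF-C libraries, and edgeR put the difference at 0.083 ± 0.32 (SE) on the log2 scale, with a 95% interval of −0.70 to 0.87 and an adjusted p of 0.999. The gene model shares 204 exonic bases with *Elavl1* on the opposite strand.

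*Ccr9* (ENSMUSG00000029530.16, located on the plus strand of chromosome 9 between 123678439 and 123784330) was at 14.9 and 31.4 CPM in the control pools and at 18.3 and 20.5 CPM in the VEGF-C pools. The controls were the lowest and the highest of the 4 libraries. By edgeR, the difference was −0.26 ± 0.36 (SE) on the log2 scale, with a 95% interval of −1.13 to 0.61 and an adjusted p of 0.999, −0.71 without AAV-CTRL 1, and 0.39 without AAV-CTRL 2. CCR9 is known from plasmacytoid dendritic cells, the main producers of type I interferon, as well as from gut-homing lymphocytes. Per 1000 summed TPM of the 11 plasmacytoid dendritic cell markers, *Ccr9* was at 29.7 and 30.9 with the control vector and 28.8 and 30.0 with VEGF-C. The ratio varied 1.07-fold, against 2.29-fold for *Ccr9* itself, and 0.0164% of 18268 genes kept as narrow a ratio to this list. With the geometric mean of the markers in place of their sum it also varied 1.07-fold. The list was led by *Bst2* and *Ly6d*, and *Ly6d* and *Tcf4* are also expressed in the B lineage. The summed level of the list was 125 and 275 TPM with the control vector and 142 and 166 TPM with VEGF-C. The *Ccr9* model shares 1932 exonic bases with a noncoding gene model on the opposite strand, and whether the counting used strand is not given in the sources used here.

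The most abundant markers were *Cd79a* and *Cd72* for B cells, *Jchain* and *Sec11c* for plasma cells, *Cd3g* and *Trbc2* for T cells, *Ccl5* and *Cd209a* for dendritic cells, and *S100a9* and *S100a8* for neutrophils. The remaining marker lists are given by their sums over the control and then the VEGF-C pools. B cell precursor markers, led by *Cd93* and *Erg*, summed to 28.1 and 52.6 against 26.6 and 34.5 TPM. *Cd93* and *Erg* are also known from endothelial and myeloid cells and had log2 fold changes of 0.044 and 0.042. The recombination genes *Rag1* (−2.33, unadjusted p = 0.0125 from edgeR), *Rag2* (−1.63), and *Dntt* (−0.52) were the 3 of 8 tested precursor markers with both VEGF-C pools lower. Osteoblast markers, led by *Runx2* and *Spp1*, summed to 33.9 and 66.8 against 31.7 and 39.5 TPM. Macrophage markers, led by *C1qb* and *C1qa*, summed to 795 and 1292 against 607 and 953 TPM. Endothelial markers, led by *Pecam1* and *Vwf*, summed to 29.4 and 31.0 against 18.0 and 20.5 TPM, and 5 of the 10 were lower in both VEGF-C pools, as were 15.2% of tested genes. Both VEGF-C pools were also lower for 3 of 8 tested osteoblast, 2 of 15 B cell, and 2 of 11 plasmacytoid dendritic cell markers, and higher for 2 of 15 neutrophil and 1 of 7 lymphatic markers. Lymphatic endothelial markers, led by *Reln* and *Lyve1*, were scarce, at 4.94 and 8.79 against 4.36 and 5.91 TPM. The stromal, B cell precursor, osteoblast, and endothelial lists were thus at their lowest in AAV-mVEGF-C 1, as were the macrophage, B cell, and lymphatic lists. The part of any of these lists in the values of *Cxcl12* was not tested.

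The ratios of *Ccr9* and *Cxcl12* to their lists were picked from 96, those of 8 genes to each of 12 marker lists, and were chosen after the values had been seen. They are descriptions of 4 libraries. The shares of genes with as narrow a ratio were computed for a single list and take no account of this choice. The lists themselves moved together to a large extent, since AAV-CTRL 2 was highest in 8 of them, and *Ccr9* varied only 1.18-fold against the osteoblast markers and 1.22-fold against the B cell precursor markers. *Runx2*, the leading osteoblast marker, is also in the plasmacytoid dendritic cell list, so these ratios are not separate. Against geometric means, *Ccr9* varied 1.42-fold for the osteoblast and 1.66-fold for the precursor markers. *Cxcl12* varied 1.21-fold against the summed osteoblast markers and 1.25-fold against the B cell markers, and 1.39-fold and 1.36-fold against their geometric means, where the stromal list gave 1.20-fold.

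**Figure D2:**
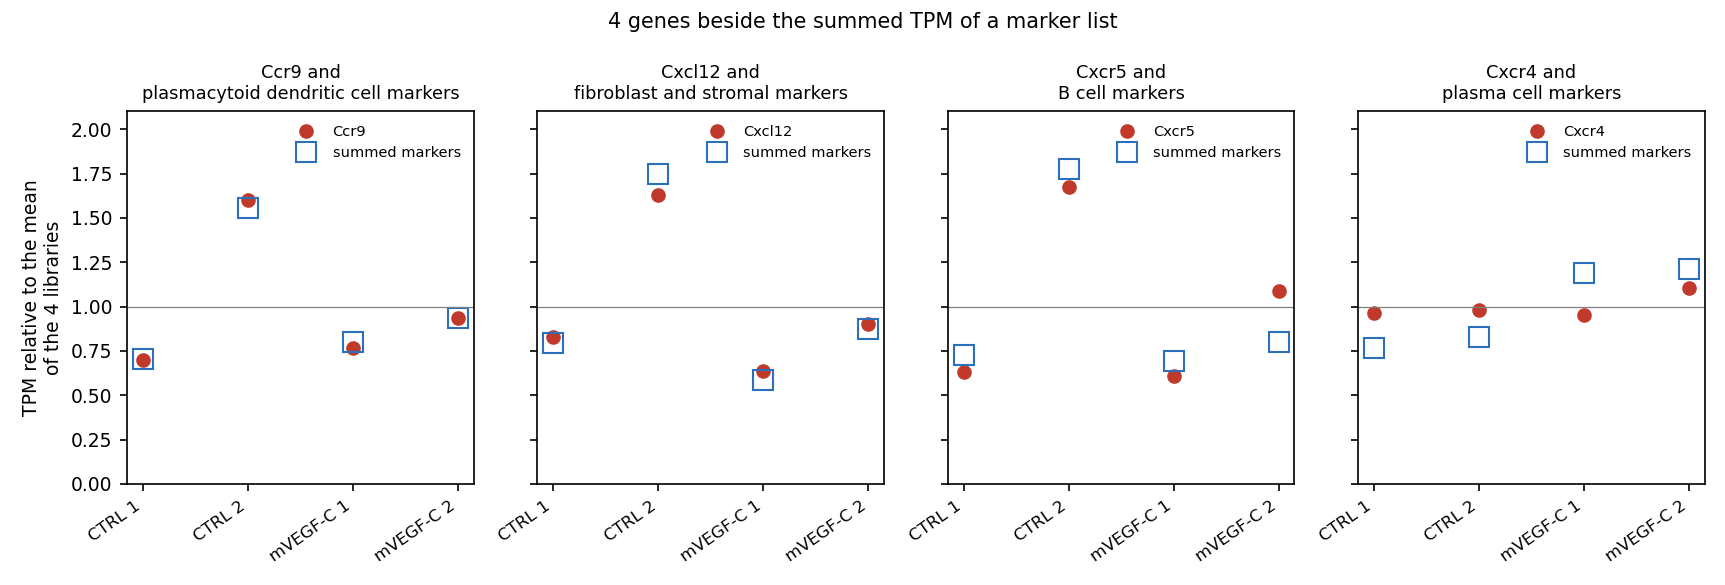
TPM of *Ccr9*, *Cxcl12*, *Cxcr5*, and *Cxcr4* (filled circles) and the summed TPM of a marker list (open squares) in each library, each divided by its mean over the 4 libraries (linear axis from 0). *Ccr9* and *Cxcl12* lie on or near their lists in every library, with the highest point in AAV-CTRL 2, while the plasma cell sum, 482 and 521 against 747 and 760 TPM, differs between the groups mainly through *Jchain* and *Cxcr4* does not.

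The CXCL13 axis, which organizes B cell follicles, showed no common direction. *Cxcr5* (ENSMUSG00000047880.15, located on the minus strand of chromosome 9 between 44511787 and 44561877) was at 15.2 and 33.8 CPM in the control pools and at 15.9 and 22.1 CPM in the VEGF-C pools. As for *Ccr9*, the controls were the lowest and the highest libraries. edgeR estimated a difference of −0.37 ± 0.40 (SE) on the log2 scale, with a 95% interval of −1.33 to 0.60 and an adjusted p of 0.999. It was −0.85 without AAV-CTRL 1 (adjusted p = 0.0305) and 0.33 without AAV-CTRL 2 (adjusted p = 0.379), so this call too depended on which control was kept. B cell markers had the same highest library, at 211 and 517 summed TPM with the control vector and 202 and 233 with VEGF-C, and *Cd79a*, a part of the B cell receptor complex, was at 36.6 and 100.7 against 32.8 and 39.0 TPM. Per 1000 TPM of these 15 markers, *Cxcr5* was at 20.1 and 21.7 with the control vector and 20.2 and 31.4 with VEGF-C. AAV-mVEGF-C 2 alone stood above the other libraries on this scale. The *Cxcr5* model shares 110 exonic bases with *Bcl9l* on the opposite strand.

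*Cxcl13* (ENSMUSG00000023078.6, located on the plus strand of chromosome 5 between 95956951 and 95961068) had 93 and 16 reads in the control pools and 28 and 69 in the VEGF-C pools, which is 2.08 and 0.465 against 0.717 and 2.18 CPM. Each group held a high and a low library. edgeR put the difference at 0.17 ± 0.94 (SE) on the log2 scale, with a 95% interval of −2.11 to 2.46 and an adjusted p of 0.999. *Cxcl13* was low where *Cxcr5* was highest, in AAV-CTRL 2, and the ratio of receptor to ligand in TPM ran from 2.49 in AAV-CTRL 1 to 26.5 in AAV-CTRL 2.

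The CCL19 axis joined the second most abundant receptor to a scarce ligand. *Ccr7* (ENSMUSG00000037944.8, located on the minus strand of chromosome 11 between 99144196 and 99155077) was at 47.6 and 78.1 CPM in the control pools and at 64.7 and 78.3 CPM in the VEGF-C pools. AAV-CTRL 1 was the lowest, and AAV-CTRL 2 was close to AAV-mVEGF-C 2. The estimate from edgeR was 0.19 ± 0.26 (SE) on the log2 scale, with a 95% interval of −0.46 to 0.83 and an adjusted p of 0.999. Cells known for *Ccr7* were measured alongside. T cell markers summed to 314 and 336 TPM with the control vector and 361 and 350 TPM with VEGF-C, and dendritic cell markers to 312 and 344 against 328 and 346 TPM. Each of these sums varied less than *Ccr7*, which differed 1.77-fold in TPM between its lowest and highest library.

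*Ccl19* (ENSMUSG00000071005.7, located on the minus strand of chromosome 4 between 42754525 and 42756577) was at 0.224 and 1.22 CPM in the control pools and at 0.614 and 0.883 CPM in the VEGF-C pools. Both AAV-mVEGF-C libraries lay between the controls. By edgeR, the difference was 0.057 ± 1.09 (SE) on the log2 scale, with a 95% interval of −2.59 to 2.71 and an adjusted p of 0.999. Its estimated reads were not whole numbers, as for genes whose reads are divided among near-identical copies, and the annotation places the pseudogenes *Ccl19-ps1* and *Ccl19-ps3* on the same chromosome. *Ccl21a* and *Ccl21b* encode the lymphatic ligand of CCR7. *Ccl21a* was at 0.403 and 0.174 CPM with the control vector and 0.282 and 0.379 CPM with VEGF-C, and *Ccl21b* was at 0.246 and 0 against 0 and 0.221 CPM. Of the scavenging receptors, *Ackr4*, for CCL19, CCL21, and CCL25, was at 0 and 0.116 against 0.154 and 0.126 CPM, and *Ackr2*, for inflammatory chemokines, was at 0 and 0.233 against 0.563 and 0.0631 CPM.

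**Figure D3:**
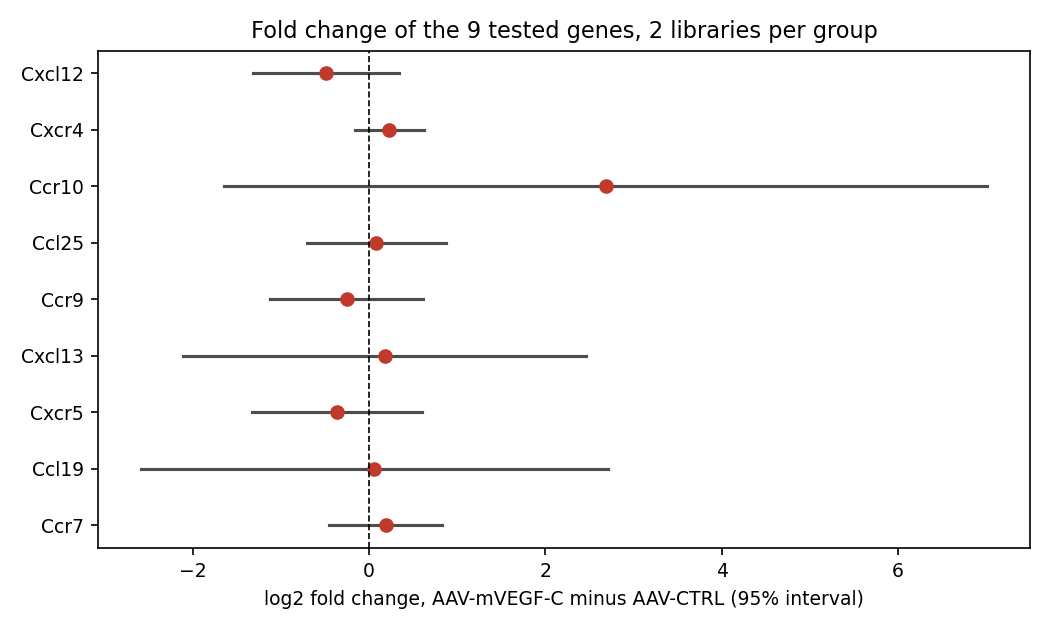
Log2 fold change of the 9 tested genes (AAV-mVEGF-C minus AAV-CTRL, points) with its 95% interval from edgeR (lines), for 2 libraries per group. The intervals of all 9 genes include 0, from the narrowest at *Cxcr4* (−0.16 to 0.62) to the widest at *Ccr10* (−1.65 to 7.01).

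The wider homing machinery was measured through the gene lists, in which 0 genes passed the adjusted test. The list of 29 further homing genes had 27 tested, with a median log2 fold change of 0.048. Of these, 5 were higher and 2 lower without overlap of the groups, against 16.8% and 15.2% of all tested genes. The 4 with the smallest p included the enzymes that make and degrade the oxysterol ligand of GPR183, a receptor that positions activated B cells. *Ch25h*, which starts its synthesis, was at 0.671 and 1.95 CPM with the control vector and 2.64 and 3.91 CPM with VEGF-C (1.33 ± 0.65 (SE) on the log2 scale by edgeR, unadjusted p of 0.0854). *Cyp7b1*, which completes the synthesis, was at 1.54 and 0.581 against 0.358 and 0.0947 CPM. *Hsd3b7*, which degrades the product, was at 2.08 and 3.69 against 4.97 and 4.76 CPM. *Itgal*, the α chain of the integrin LFA-1, was at 306 and 296 against 345 and 379 CPM. *Gpr183* itself was at 55.4 and 73.4 against 70.1 and 67.6 CPM.

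Of the 26 genes of chemokine receptor signaling, all of which were tested, 10 were higher and 2 lower without overlap, against the same 16.8% and 15.2%, with a median log2 fold change of 0.023. *Rgs13*, which encodes a regulator that ends G protein signals in B cells and mast cells, was at 2.50 and 1.86 CPM with the control vector and 0.922 and 0.820 CPM with VEGF-C (−1.32 ± 0.57 (SE) on the log2 scale by edgeR, unadjusted p of 0.0594). *Grk3*, which encodes a kinase that desensitizes CXCR4, was at 69.3 and 82.5 against 100.7 and 91.7 CPM. *Rgs18*, a regulator of platelets and myeloid cells, was at 40.8 and 25.4 against 24.2 and 22.8 CPM. *Arrb1*, which encodes a β-arrestin, was at 153 and 176 against 188 and 187 CPM.

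For each of the 9 tested genes, the gene of the other lists with the most similar profile was found over the 4 libraries, among 202 genes, by the root mean square difference of centered log2 CPM. *Ccr9* was closest to the endothelial gene *Egfl7* (difference 0.025), with 0 of the other tested genes closer. *Cxcr4* was closest to *Itgal* (0.038), *Cxcl12* to the stromal *Igfbp5* (0.053), *Cxcr5* to the plasmacytoid dendritic cell gene *Siglech* (0.063), *Ccl25* to the T cell kinase gene *Lck* (0.079), and *Ccr7* to *Cd300c* (0.084). The low genes had more distant partners, *Ccl19* in *Esam* (0.20), *Ccr10* in *Tnfrsf17*, which encodes a survival receptor of plasma cells (0.54), and *Cxcl13* in *Ccl21a* (0.55). With 4 libraries many genes share such a profile, and 343 tested genes were closer to *Ccr10* than *Tnfrsf17* was.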

How the data were processed

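The members and gene lists were chosen with earlier results of these data known. The authors deposited 2 tables, estimated counts per gene without normalization, of which 8.18% were not whole numbers, and TPM values, which sum to 1000000 per library. Per the submitters' processing notes, FastQC, Trimmomatic, DRAGEN, Picard, and mm10 were used. The annotation and the strand setting of the counting are not given in the sources used here, although the library kit was stranded. GENCODE M21, used for coordinates, holds 54349 of the gene identifiers in an identical version.

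Estimated counts were rounded and tested with edgeR 4.0.16 in R 4.3.3 (TMM, filterByExpr and glmQLFit at defaults, all 4 libraries, no covariate). A standard error is the log2 fold change divided by the square root of F. DESeq2 (1.42.0 here; the study used DESeq2, in a version not given for these cells), limma 3.58.1 (voom and TPM), RLE scaling, other filters, a replicate block, and each library left out were alternatives. The titles number the pools by experiment. The column names of the VEGF-C pools follow these numbers, but those of the control pools do not, so which pools were handled together is not settled. The tests were tried on simulated data. Named genes were all members, the partners of their axes, the 4 of smallest p in each other homing list, the 2 leading markers of each list, and the closest profiles. *Gpr183*, *Tcf4*, *Irf4*, *Pou2af1*, *Rag1*, *Rag2*, *Dntt*, and the ratios to markers were added after the values were seen. Sequences are RefSeq's. P-values measure the spread between pools.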

Additional observations from a re-analysis of the deposited data

How the results depend on the processing

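Over 13 alternative fits, of which 12 tested *Ccr10*, 5 *Ccl28*, and all 13 the other 8 homing genes, calls among them arose where a control pool was left out and in no other fit. There the number of called homing genes ran from 0 to 2 over the 4 fits, *Cxcl12* and *Cxcr5* without AAV-CTRL 1 and *Ccr10* without AAV-CTRL 2. The number of called genes overall was 0 in edgeR (523 with an unadjusted p under 0.05), 77 with DESeq2, 268 without a filter, 11 when experiment numbers entered as a replicate block, and 54 with the crossed replicate block (AAV-CTRL 1 with AAV-mVEGF-C 2), which was chosen after seeing the data. It ran from 2 to 2058 with a library left out, where the lone library of a group is assumed to vary like the other group. The cause was not tested. Deviations of same-numbered libraries correlated at −0.134, and no call of a homing gene changed under either block. In TPM, 1 of the 9 tested genes separated the groups, *Ccr10*, and not *Cxcr4*. The share of all tested genes that separated in TPM was not computed, so this count has no background beside it. *Ccl25* changed sign in TPM, at −0.013 with a pseudocount of 1 and −0.018 with 0.1. Across the fits that each left out a library, the log2 fold change ran from −0.87 to 0.0097 for *Cxcl12*, −0.15 to 0.30 for *Ccl25*, −0.71 to 0.39 for *Ccr9*, −0.83 to 1.61 for *Cxcl13*, −0.85 to 0.33 for *Cxcr5*, −0.72 to 1.74 for *Ccl19*, and −0.14 to 0.60 for *Ccr7*. For *Ccr10* it ran from 1.65 without AAV-CTRL 1 to 7.85 without AAV-CTRL 2, and over all fits that tested it from 0.29 to 7.85. *Ccl28* had a log2 fold change of 3.94 with DESeq2, which gave no adjusted p, and of 2.78 without AAV-CTRL 1 to 7.04 without AAV-CTRL 2, where its adjusted p was 0.104. *Cxcr4* stayed positive in all fits, from 0.072 to 0.35. *Ccl28*, *Ccr10*, and *Ccl19* had at most 42.1 reads in any library, and what set these low counts was not tested.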
